A study of Drosophila melanogaster with 2 samples.

Results

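The genes described here are 9 Drosophila genes that encode E-box binding factors of the basic helix-loop-helix leucine zipper kind: Myc, Max, Mnt, crp, Mitf, Usf, Mondo, bigmax and SREBP. They were chosen by name, from 13945 protein-coding genes of the annotation, with earlier results of these data known. Each was read over a window of the gene and 5 kb either side on dm6, for peak summits of a CG7987-GFP chromatin immunoprecipitation (ChIP-seq) series. The series' main list holds 4410 peaks that passed a threshold on the irreproducible discovery rate (IDR), a measure that compares the order of peaks between replicates. Of these, 31 had their summit in these windows. They were spread over 7 of the 9 genes. Mitf and Usf had none.

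Factors of this family bind DNA as dimers, and many of them recognise CACGTG or related words of the E-box form CANNTG. Myc pairs with Max to drive growth and ribosome production, and Mnt pairs with Max and acts against Myc. Mondo pairs with bigmax and turns on genes of sugar and lipid metabolism when sugar is eaten, while SREBP, released from a membrane by proteolysis, controls genes of fatty acid synthesis. Mitf controls genes of the lysosome and its proton pump, Usf is the fly relative of the vertebrate upstream stimulatory factors, and crp (cropped) is the fly relative of vertebrate AP-4, whose known word is CAGCTG.

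Both libraries came from whole embryos of mixed sex, collected over 0 to 24 h, of a transgenic line with GFP fused to the C-terminal end of CG7987. They were 2 biological replicates of 1 group, so no conditions could be compared and no test was made. The main counts below stand beside the same count over all genes or all IDR peaks. The antibody and assay labels name a ChIP of CG7987, while a free-text line calls the libraries an input control. They were treated as ChIP, and the values below do not test which label is right.

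Each deposited peak carries a signal, a strength from the authors' caller whose scale the sources used here do not state. It is used here to rank and describe peaks within a list. In the IDR list it ran from 139 to 11622 with a median of 201, and ranks below count from 1, the strongest peak of the pooled list. Read counts were not used, and sequencing depth is therefore unknown. In whole embryos, strong binding in few cells and weak binding in many cannot be told apart. The window of CG7987 itself (3R, 14570472 to 14575887) held 0 IDR summits.

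The Mondo window held 3 of the 5 strongest sites of the 31, and that of its partner bigmax held the strongest. Their sequences are shown with 50 bases either side of the summit, on the plus strand of dm6, because these 4 sites hold the same word. Capitals mark that word, ATCACGC, with CACGTG where present, and, in the sequences of the Mondo window, 6 bases that follow ATCACGC after 7 others. The weaker Myc intron site is added as the only other one of the 31 with CACGTG in this span.
Mondo intron, chr2L:21308136-21308236: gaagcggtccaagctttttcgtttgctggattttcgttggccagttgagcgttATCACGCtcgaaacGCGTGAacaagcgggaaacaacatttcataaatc
crc intron upstream of Mondo, chr2L:21313185-21313285: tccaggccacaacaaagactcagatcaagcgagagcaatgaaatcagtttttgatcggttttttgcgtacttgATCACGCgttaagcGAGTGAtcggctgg
second Mondo intron site, chr2L:21299725-21299825: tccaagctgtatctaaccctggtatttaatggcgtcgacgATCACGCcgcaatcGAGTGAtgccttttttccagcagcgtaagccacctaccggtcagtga
upstream of bigmax, chr3R:27293179-27293279: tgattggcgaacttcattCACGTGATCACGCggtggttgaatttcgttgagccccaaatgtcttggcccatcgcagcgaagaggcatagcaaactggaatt
Myc intron, chrX:3378611-3378711: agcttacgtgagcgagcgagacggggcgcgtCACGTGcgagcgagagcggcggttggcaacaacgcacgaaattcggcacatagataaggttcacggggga

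Mondo (FBgn0032940, 2L 21286078 to 21310050, minus strand, 23973 bp) encodes the sugar-responsive factor related to vertebrate ChREBP. Its strongest site lay in an intron 1303 bp downstream of the nearest Mondo start site, with a summit at 21308186 and a signal of 917, rank 68. The matching peak ranked 49 in replicate 1 and 121 in replicate 2. A second site, with a signal of 817 (rank 95), lay 3185 bp upstream of Mondo and ranked 70 and 137. It was inside an intron of crc, which encodes the fly ATF4, and nearer to a crc start site, 1125 bp away. It therefore cannot be assigned to Mondo from its position. The site at 21299775, in an intron deep in Mondo, had a signal of 533 (rank 272) and ranked 110 and 507. It was nearer to a start site of Gr39a, 3461 bp away, than to one of Mondo, 4334 bp away. All 3 sites stood among the strongest 1000 peaks of both replicates.

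The Mondo promoter itself was weaker than these. Of 3 annotated start sites, the one at 21309489 had an IDR summit 34 bp downstream, with a signal of 326 and rank 783, which ranked 570 in replicate 1 and 1403 in replicate 2. The first start site, 561 bp away, had only a candidate below the IDR list, 71 bp downstream with a signal of 125 (rank 5249). The fifth IDR summit of the window lay 38 bp downstream of a start site of crc, shared with CG46314, and had a signal of 176 (rank 2883). The Mondo window thus held a promoter site of its own between stronger sites on both sides.

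The gene of its dimer partner, bigmax (FBgn0039509, 3R 27287366 to 27288526, minus strand), is only 1161 bp long, yet its window held 5 IDR summits. The strongest, at 27293229, had a signal of 1714, rank 15 of 4410, and ranked 36 in replicate 1 and 14 in replicate 2. It was the single intergenic site of the 31, 4703 bp upstream of bigmax but only 1020 bp upstream of CG3348, so it cannot be assigned to bigmax from its position. A second summit in the same 1309 bp peak, 230 bp upstream of CG3348, had a signal of 147. At bigmax itself the summit lay 64 bp upstream of the start site with a signal of 439 (rank 414) and ranks of 507 and 393. That was the highest signal at an own promoter of any of the 9 genes, but the promoter is shared with Hmu, which is read in the other direction. The remaining sites lay in an intron of Hmu (signal 276) and 212 bp downstream of the start of mrt (268).

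The word ATCACGC was read off these sequences after they were seen, so its counts are a description. It lay 6, 26 and 7 bp from the summits of the 3 strong sites of the Mondo window and 23 bp from that of the strong bigmax window site, where it directly followed CACGTG. None of the other 27 sites held it within 50 bp, so 4 of the 31 (12.9%) had it, beside 1.56% of all IDR summits, 10 of the strongest 100 and 0.522% of equal windows centred 400 bp to either side of the IDR summits. In the Mondo window the word was followed, after 7 bases, by GNGTGA at all 3 sites and by GAGTGAT at 2 of them. Searched on both strands, ATCACGC with GNGTGA at that spacing occurred 6 times on the chromosome arms. At 4 IDR summits it lay wholly within 50 bp, and 3 of these were the Mondo window sites. The form with GAGTGAT occurred 2 times on the arms, both at these sites. Because the pair of words was defined from these 3 sites, their share of it carries no weight of its own.

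**Figure D1:**
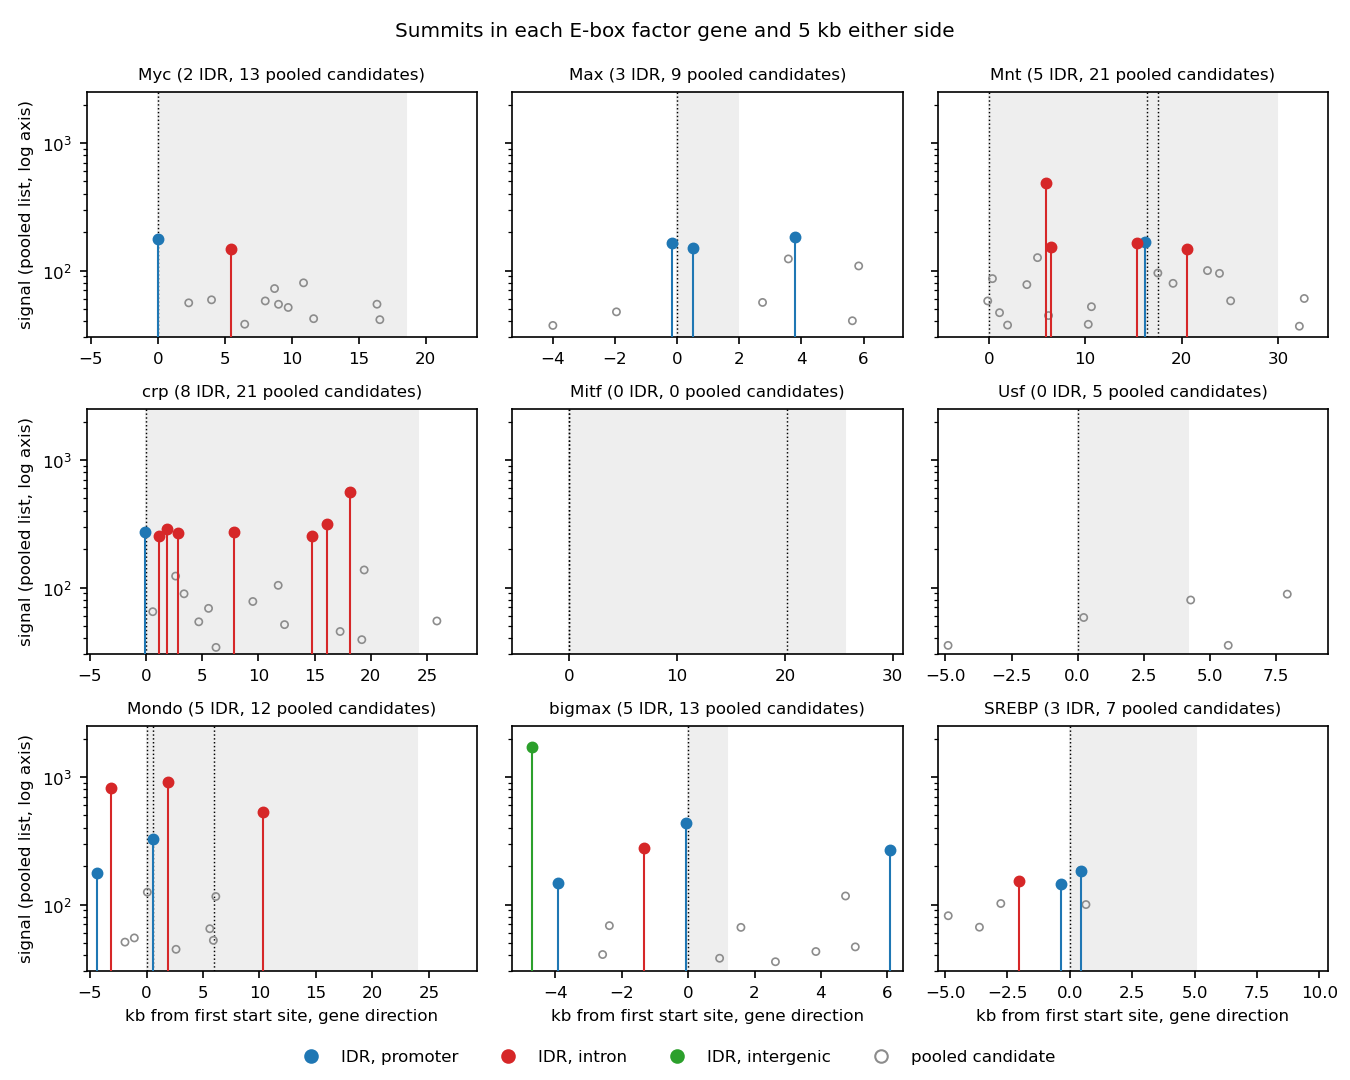
Position of each summit from the first start site of the gene in kb, in the direction of the gene (x), against signal in the pooled list (y, log axis), for the 9 genes. Grey shading is the gene, dotted lines are its start sites, filled stems are IDR summits coloured by site class and open circles are pooled candidates below the IDR list; the highest stems stand in the Mondo and bigmax panels, and the panels of Mitf and Usf have none.

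Over all 9 genes, 7 had an IDR summit within 500 bp of a start site of their own, beside 20.5% of all protein-coding genes. Among the strongest 2205 IDR peaks the count was 3 (crp, Mondo and bigmax), beside 10.9%. The same 7 had a summit anywhere in the window, beside 48.1%. The windows held 1.38 IDR summits per 10 kb, against 0.329 per 10 kb over the chromosome arms. The arms include sequence away from genes, and the density over the windows of all protein-coding genes is not given here. Counts of 5 or more were reached by 4 genes (crp 8, Mnt 5, Mondo 5, bigmax 5), beside 1.79% of protein-coding genes. Max and SREBP had 3, a count reached or passed by 9.13% of protein-coding genes, and Myc had 2, reached or passed by 22.3%.

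Longer windows can hold more summits. Myc, Mnt, crp, Mitf and Mondo are 18 kb or longer, against a median of 2166 bp for protein-coding genes. Among genes of that length, 33.3% had an IDR summit at an own start site and 10.5% had 5 or more in the window, and of these 5 genes 4 and 3 did. The length was chosen after the genes' lengths were seen. Per length, the bigmax window was the richest at 4.48 IDR summits per 10 kb, followed by Max at 2.51, crp at 2.34, SREBP at 1.99, Mondo at 1.47, Mnt at 1.25 and Myc at 0.701. The bigmax window is mostly flank, and 0 of its 5 IDR summits lay inside the gene. Of the 31 summits only 19 lay inside one of the 9 genes.

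By class, 13 of the 31 summits (41.9%) were at promoters, against 58.0% of all IDR summits. Promoters were defined as within 500 bp of any start site. Another 17 (54.8%) were in introns, against 30.2%. The windows of crp, Mnt and Mondo, genes of 18 kb or longer, held 7, 4 and 3 of these. The class shares were not set beside those of genes of like length. The promoter sites were modest. Their signals ran from 144 to 439 with a median of 178, beside 202 for all promoter IDR summits, and 2 of them were among the strongest 1000, which hold 22.7% of the whole list. The intron sites reached from 146 to 917 with a median of 274, beside 200 for all intron IDR summits, and 6 were among the strongest 1000. Both ranges overlap, and the intron sites of crp, Mondo and Mnt give the high end. Of the intron sites, 14 lay inside the listed gene and 3 inside a neighbour (crc, Hmu, and CG42637 with Gyc76C).

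Only 8 of the 13 promoter summits lay at a start site of the listed gene, and 5 of those 8 also lay within 500 bp of a start site of another gene. The other 3 were at Mnt, Mondo and SREBP. The remaining 5 promoter summits belonged to neighbours alone. Median GC content within 50 bp of the summit was 43.6% at the promoter sites (44.6% over all promoter IDR summits) and 46.5% at the intron sites (40.6% over all intron IDR summits).

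Myc (FBgn0262656, X 3373159 to 3391697, plus strand, 18539 bp) had one promoter site and one intron site, both weak. At its single start site the summit lay 29 bp downstream, with a signal of 178 and rank 2840, and this position is shared with the start of lncRNA:CR44999. It ranked 1200 in replicate 1 but 5706 in replicate 2. The intron site, 5502 bp downstream at 3378661, had a signal of 146 (rank 4015) and ranks of 3970 and 4990, with CACGTG 17 bp from its summit. Both rank beyond 2205, the middle of the list, and the window held 13 pooled candidates in all. Signals on X were not adjusted here for its copy number in embryos of mixed sex.

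At Max (FBgn0017578, 3L 19262232 to 19264184, minus strand), which encodes the shared dimer partner of Myc and Mnt, all 3 IDR summits were at promoters and none could be given to Max alone. The one nearest its start site lay 175 bp upstream with a signal of 164 (rank 3269), but only 45 bp upstream of a start site of Mettl5, a ribosomal RNA methyltransferase gene. It ranked 5646 in replicate 1 and 2599 in replicate 2. Another, inside Max, lay at start sites of Mettl5 and CG42374 (signal 150), and the third at nes, a gene of phospholipid remodelling (185, rank 2614).

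Mnt (FBgn0023215, X 3671801 to 3701672, plus strand, 29872 bp), the gene of the Myc antagonist, had 4 of its 5 IDR summits in introns. A site 5934 bp downstream of its first start site had a signal of 490, rank 328, and ranked 190 in replicate 1 and 572 in replicate 2. The other 4 lay between 147 and 166. Its own promoter site, 216 bp upstream of the internal start at 3688235, had a signal of 166 and ranked 5399 and 3188. The first start site had no IDR summit, and its nearest candidates were a signal of 57.8 at 102 bp upstream and 86.5 at 388 bp downstream. The internal start at 3689363 had a candidate of 95.6 at 33 bp upstream.

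The gene with the most IDR summits of the 9 was crp (FBgn0001994, 2L 16263556 to 16287730, minus strand, 24175 bp), with 8, a number reached by 0.208% of protein-coding genes. All but one were in its introns. The strongest, 18135 bp downstream of the start at 16269595, had a signal of 566 (rank 239) and was even between replicates, with ranks of 208 and 250. The other 7 ran from 252 to 316, all of them above the median of the IDR list. The promoter summit lay 76 bp upstream of crp, at a start region shared with pkaap, with a signal of 274 (rank 1146) and ranks of 318 and 2340. The far intron sites were nearest to the start of CG4935, a gene outside crp. The crp intron sites at 16271647, 16272924 and 16286609 held CAGCTG within 50 bp, and were the 3 with this word among the 31 (9.68%), beside 7.19% of all IDR summits and 5.11% of those in introns.

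For SREBP (FBgn0261283, 3L 19793935 to 19798979, plus strand, 5045 bp) the 3 summits were all weak. One lay 429 bp downstream of the start site, with a signal of 185 (rank 2609) and ranks of 1513 and 1577. The replicate summits paired here lay 194 bp apart, and replicate 2 had none within 100 bp of the IDR summit, so these ranks may belong to separate sites. A second, 343 bp upstream, had a signal of 144 (rank 4115) and lay 23 bp upstream of a start site of CG42637, so it also belongs to that promoter and to Gyc76C, a receptor guanylyl cyclase gene. The third was in an intron of those neighbours (154). The SREBP word TCACNCCAC was at none of the 31 sites, beside 0.385% of all IDR summits.

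The windows of Mitf and Usf held no IDR summit, and their candidates were low. At Usf (FBgn0029711, X 4544617 to 4548794, minus strand) the pooled list had 5 candidates, from 35.2 to 88.9. The one at its start site, 230 bp downstream, had a signal of 58.3 and rank 15291, was absent from replicate 1 and ranked 13143 in replicate 2. The highest lay near CHOp24. At Mitf (FBgn0263112, 4 1198852 to 1224467, plus strand, 25616 bp) neither the pooled list nor replicate 1 had a candidate, and replicate 2 had 7, the one at 234 bp downstream of its internal start site reaching 54.5, rank 10410.

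Chromosome 4, which carries Mitf, had few peaks for its length as a whole. It held 1.19 IDR peaks per 100 kb, against 2.57 to 3.62 on the other arms, and 5.19 pooled candidates per 100 kb against 20.7 to 23.6. Replicate 1 had 3.04 candidates per 100 kb there and replicate 2 had 11.0. The part that these low peak numbers play in the empty Mitf window was not tested. X, which carries Myc, Mnt and Usf, held 2.57 IDR peaks per 100 kb, beside 3.32 to 3.62 on 2L, 2R, 3L and 3R. The part of this in the values of Myc, Mnt and Usf was not tested. Just outside the IDR list, the highest candidate of the 9 windows was in a crp intron at 16268318 (signal 137.5, rank 4471). Just inside it was the upstream SREBP summit (144, rank 4115).

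All 31 IDR peaks were matched by a candidate in both replicates, taking the overlapping peak with the nearest summit. The strongest 4410 of replicate 1 included 22 of them (71.0%, against 71.7% of all IDR peaks) and those of replicate 2 included 25 (80.6%, against 85.2%). Both shares lie near or below those of the whole list. In all, 18 were within that depth in both replicates and 2 in neither. Replicate 1 gave the better rank at 16 sites (51.6%, against 48.0% of all matched IDR peaks), at 5 of the 8 own promoter sites and at 9 of the 17 intron sites.

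Ranks differed between replicates by a median ratio of 2.47, against 2.11 over all IDR peaks. Among the strongest 1000 the ratio was 2.47 against 2.33. The largest, 7.36, was at the crp promoter (318 and 2340), with its replicate summits 99 bp apart. An Mnt intron site ranked 1378 in replicate 1 and 9829 in replicate 2. Another Mnt intron site went the other way, at 12024 and 1774, with its replicate summits 219 bp apart. Replicate summits lay a median of 22 bp (replicate 1) and 15 bp (replicate 2) from the IDR summit, and at most 191 and 119 bp. For 5 of the 31 (16.1%, against 12.7% of all IDR summits), 2 at Max and 1 each at Mnt, crp and SREBP, a replicate had no summit within 100 bp. The ranks paired at those sites may be those of neighbouring peaks.

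**Figure D2:**
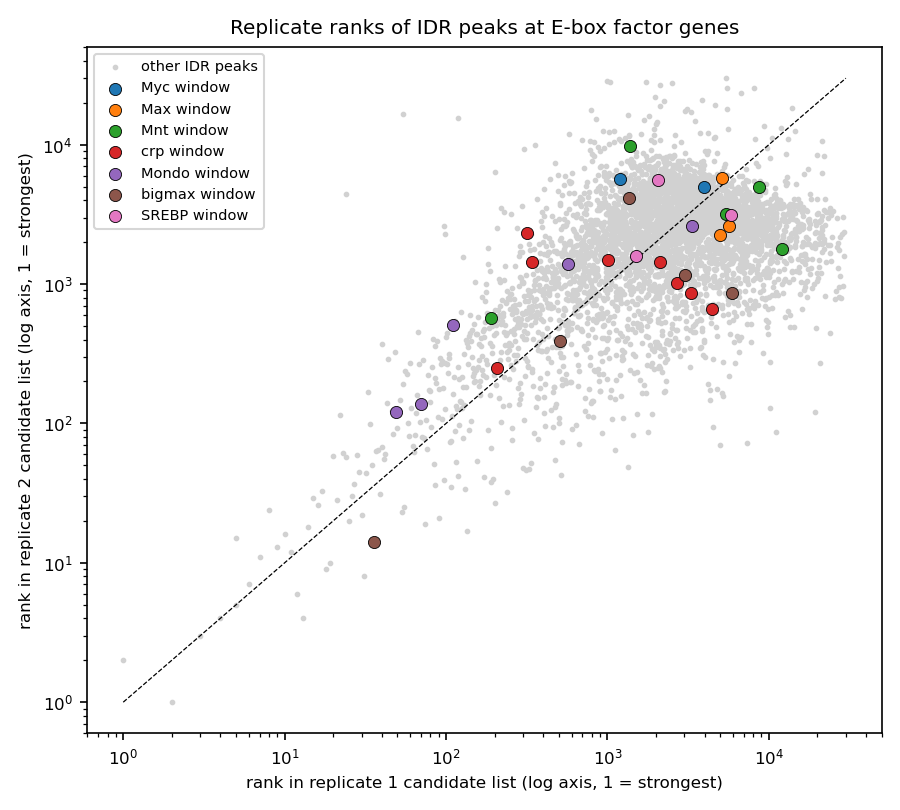
Rank of the matching candidate in replicate 1 (x, log axis) against replicate 2 (y, log axis) for each IDR peak; coloured points are the 31 peaks in the windows of the 7 genes that have any, grey points are other IDR peaks and the dashed line marks equal ranks. The Mondo and bigmax window sites reach the lower left, while Myc, Max and SREBP sites lie among the bulk of the list.

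CACGTG, the word that many of these factors recognise, was present within 50 bp of 2 of the 31 summits (6.45%), the Myc intron site and the strongest bigmax window site, beside 3.22% of all IDR summits and 11.0% of the strongest 100. At both it was part of TCACGTG or its reverse complement, which 1.45% of all IDR summits held. Windows 400 bp to either side held CACGTG in 1.20% of cases. The looser E-box CANNTG was at 11 of the 31 (35.5%), beside 44.8% of all IDR summits and 38.9% of the flanking windows. Among other words searched, TAATTA was at 4 (12.9%), beside 4.76% of all IDR summits, and TATAAA at 0, beside 11.2%. CGATA, which is part of the word of the boundary factor BEAF-32, was at 3 (9.68%), beside 20.2% of all IDR summits. That share was 25.1% for promoter IDR summits and 13.2% for those in introns.

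The windows were not short of E-boxes away from summits. They held 44 CACGTG words, 1.96 per 10 kb against 1.23 per 10 kb over the arms. Of the 44, 2 (4.55%) lay within 50 bp of an IDR summit, beside 0.883% of the 16428 on the arms. Near a pooled summit lay 7 (15.9%), beside 4.68%. The windows also held more IDR summits per 10 kb than the arms (1.38 against 0.329). Mnt had the most, 12 in its window, with 3 near a pooled summit and 0 near an IDR summit. Mondo had 9, with 0 near an IDR summit, although the 3 strong sites of its window are among the highest of the 31.

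Genes that work with these factors were counted in 6 further lists, by an IDR summit within 500 bp of an own start site, the measure that 20.5% of all protein-coding genes meet. These lists too were chosen with earlier results of these data known, so their shares are a description. Of 18 cofactors and regulators of Myc, 10 had one (55.6%). The highest were the co-repressor genes Sin3A (signal 369, ranks 323 and 914 in the replicates) and gro (356, ranks 1028 and 454), followed by the kinase gene hppy (250). The Sin3A summit also lay within 500 bp of a start of lncRNA:CR30055. Of 24 growth targets of Myc in the nucleolus, 8 had one (33.3%), led by the GTPase gene Ns2 (388), Mybbp1A (383) and Ns1 (285). Each of these summits also lay within 500 bp of a start site of another gene, POSH, RpL36 and mRpS11 in turn.

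Of 16 sugar response targets of Mondo, 9 had one (56.3%). The zinc finger gene sug, a sugar-induced regulator of metabolism, had a summit 134 bp from its start with a signal of 1183, rank 36, and ranked 29 and 45. By pooled signal it was the strongest own promoter site of the 7 lists. The zinc finger gene cbt had 311 at 87 bp from its start, and the replicate peaks overlapping it ranked 13 and 4. The replicate 2 peak was also the match of another IDR peak, which ranked 4 in both replicates. The ranks paired at cbt may therefore be those of a neighbouring peak. The desaturase gene Desat1 had 307. Of 14 genes of the SREBP pathway, 7 had one (50%), with the acetyl-CoA synthetase gene AcCoAS at 656 (rank 167), Desat1 again, and Pcyt1, of phosphatidylcholine synthesis, at 269 in a promoter shared with CG32313. Both lists share Desat1, FASN1, ACC and ATPCL.

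Of 27 lysosome targets of Mitf, 13 had one (48.1%), although Mitf itself had none. The highest were subunit genes of the lysosomal proton pump: Vha44 (563, rank 244, with CACGTG within 50 bp), Vha55 (397) and Vha100-2 (392). The summits are shared with Hmgs, Snx3 and Vti1b in turn. Of 44 other basic helix-loop-helix genes, 9 had one (20.5%), the same share as all protein-coding genes, led by emc (343), E(spl)m3-HLH (275) and trh (249). In the 4410 strongest peaks of each replicate alone, the Mondo target list had 12 in replicate 1 and 9 in replicate 2. The Mitf target list had 13 in each, and the other basic helix-loop-helix list had 5 and 9. Over all protein-coding genes the shares were 19.7% in replicate 1 and 20.6% in replicate 2. No list was tested, and genes of a list are not replicates.

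**Figure D3:**
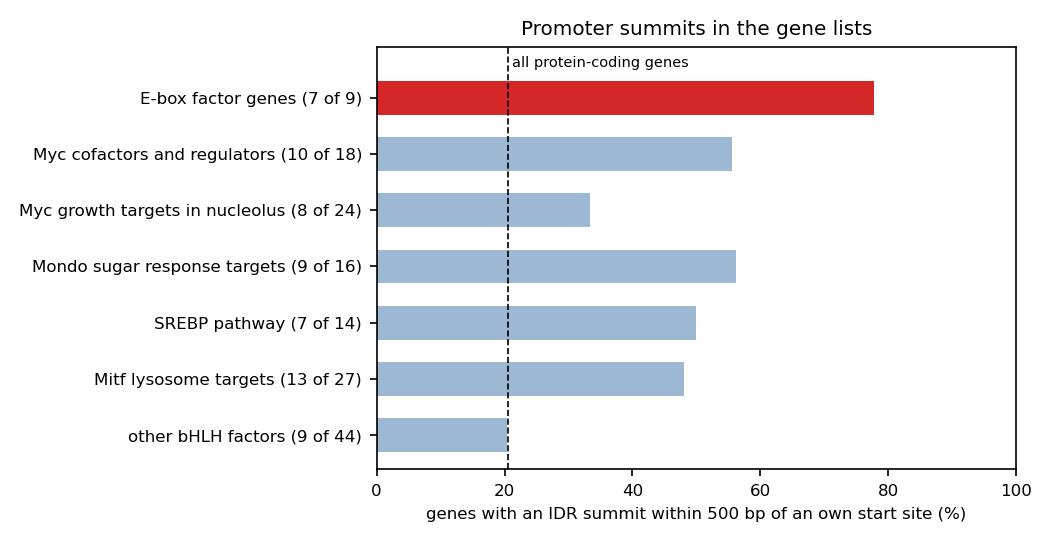
Percentage of genes of each list with an IDR summit within 500 bp of an own start site; bars start at 0, the red bar is the 9 E-box factor genes and the dashed line is the share of all protein-coding genes, 20.5%. The E-box factor genes have 7 of 9, and the other basic helix-loop-helix genes lie at the line.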

How the data were processed

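Peak lists for each of 2 replicates and for their pool were called against 1 control library, and the IDR list was derived from them, per the deposited readme texts; the sources used here do not name the aligner, the caller or the IDR threshold. Coordinates are on dm6, per the labels. Column 7 is the signal of the authors' caller. The deposited −log10 q-value was tied in the IDR list, so peaks were ranked by signal. Read counts were not used, so depth is unknown. The candidate lists hold 30000 peaks each, and 1 replicate 1 peak on Y was left out.

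Summits were placed in the first of 7 classes: promoter (within 500 bp of a start site), then UTR at the 5′ end, coding sequence, UTR at the 3′ end, any further exon, intron, and last intergenic. The annotation was Ensembl 115 (BDGP 6.54) without transposable elements, and sequence came from RefSeq Release 6. Words were searched on both strands within 50 bp. Before the sequences were read 12 words were set, not all of which are given here. Of the symbols in the lists, 5 matched through a synonym and 6 did not match and were not analysed here. The genes named are the 9, the nearest gene of each summit, genes that share its promoter, and the 3 with the highest own promoter signal of each other list. CHOp24, FASN1, ACC, ATPCL, and the genes that share a promoter with a gene of the other lists (lncRNA:CR30055, POSH, RpL36, mRpS11, CG32313, Hmgs, Snx3 and Vti1b) were named after their values were seen. Members and lists were chosen with earlier results of these data known. Scripts were tested on simulated data and ran in Python 3.11.15 with pandas 2.3.3, numpy 2.4.6, matplotlib 3.10.9 and scipy 1.17.1.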

Additional observations from a re-analysis of the deposited data

How the results depend on the processing

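Counts moved with the number of peaks admitted, the flank and the span searched for a word. Among the strongest 2205 IDR peaks, 4 genes had a summit in the window and 3 at an own promoter (10.9% of all protein-coding genes), and the 31 summits became 17, the 13 promoter summits 4 and the CACGTG sites 1. Over all pooled candidates 8 genes had an own promoter summit (55.4% of all), and there were 101 summits, 31 at promoters, 50 in introns and 7 with CACGTG. Without flanks there were 19 summits, 5 at promoters and 1 with CACGTG. With signals on X divided by 0.75, the X dose taken for mixed sex, there were 31 summits. Of these, 12 were at promoters, 18 in introns and 2 with CACGTG, and 7 genes had an own promoter summit. The 2 CACGTG sites became 1 with a 2 kb flank, 1 within 25 bp, 6 within 100 bp and 1 without replicate 1. Taking the strongest 4410 peaks of one replicate, own promoter genes numbered 5 to 6 (20.6% and 19.7% of all), genes with a summit 6 to 6, summits 28 to 28, promoter sites 10 to 13, intron sites 14 to 16 and CACGTG sites 1 to 2; replicate 2 alone lost Myc and SREBP and replicate 1 alone lost Max. The strongest summit of 7 genes was matched in both replicates by overlap, and that of 5 with summits within 100 bp. The 4 ATCACGC sites, a count chosen after seeing the data, became 2 with a 2 kb flank, without flanks and within 25 bp, 5 within 100 bp and 3 without replicate 2. In all, 40 of 59 alternatives stayed within 1.5 times. The cause of these changes was not tested beyond the size of each list or window. No paired analysis was possible because the series has 1 group.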
